A study of Mus musculus with 15 samples.

Results

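The ATP-binding cassette (ABC) genes form one large family, and its members were taken here by symbol alone, as every gene named Abc followed by a family letter from a to g and a digit. This gave 50 of the 23329 genes in the count tables. Poly(A) RNA had been sequenced from 15 mouse tumors of 2 types, each tumor from a different mouse, with or without caspase-2, an apoptotic protease encoded by Casp2. EuMyc lymphomas (n = 4, onset at 13 to 19 weeks) came from cervical lymph nodes of C57BL/6 mice in which the immunoglobulin heavy chain enhancer drives Myc in B lineage cells, and EuMycC2ko lymphomas (n = 3, onset at 8 to 12 weeks) came from mice of that strain and transgene that were Casp2-/-. ThMYCN neuroblastomas (n = 4, onset at 10 to 21 weeks) were paraspinal thoracic tumors of Sv129/C57BL6 mice in which the tyrosine hydroxylase promoter drives MYCN in the sympathetic lineage, and ThMYCNC2ko neuroblastomas (n = 4, onset at 15 to 24 weeks) carried the same transgene on a Casp2-/- background. All mice therefore carried a Myc family oncogene, and no normal tissue was included. Neuroblastomas with few blood vessels had been preferred by the study. Strain background differs with tumor type, so the 2 cannot be told apart in any comparison of lymphoma with neuroblastoma.

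ABC proteins bind and hydrolyse ATP on a conserved nucleotide-binding cassette and most of them use it to move a substrate across a membrane. The B, C and G families include the exporters known for multidrug resistance, the A and G families include exporters of cholesterol and phospholipids, transporters of the B and D families that work as pairs of subunits sit in mitochondria, peroxisomes and lysosomes, and the E and F families have no membrane domain and work on the ribosome. In human neuroblastoma, ABCC1 and ABCC4 are known for their link to MYCN and to poor outcome.

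Of the 50 members, 38 exceeded 1 CPM (counted reads scaled to a library total of 1000000) in at least 3 tumors and were tested with the other genes, 14880 in all. The CPM values of genes given below also carry edgeR's normalization factor of each tumor, 0.962 to 1.04. Libraries held 4940464 to 17638029 counted reads, so that 3 reads corresponded to 0.170 to 0.607 CPM, and EuMycC2ko215 was the shallowest. Tumor labels were checked against marker genes. All 8 B cell markers had reads in every group and summed to 2112 to 4979 CPM in EuMyc, 3059 to 3301 CPM in EuMycC2ko and 11.4 to 27.1 CPM over both neuroblastoma groups, whereas all 8 sympathetic neuroblast markers summed to 2859 to 4635 CPM in neuroblastomas and 2.67 to 14.8 CPM in lymphomas. Casp2 stood at 125 to 203 CPM in EuMyc, 51.9 to 76.1 CPM in EuMycC2ko, 76.0 to 125 CPM in ThMYCN and 39.6 to 80.2 CPM in ThMYCNC2ko tumors. The counts cover the whole gene, deleted part or not, so they do not check single labels. The T cell markers (7 of 8 in the tables) summed to 1318 CPM in EuMycC2ko215 and to 94.8 to 239 CPM in the other lymphomas. In bulk tumors, a change in the share of a cell type and a change in RNA per cell cannot be told apart.

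Of the 4 ABC proteins without a membrane domain, Abce1, Abcf1 and Abcf2 were the most strongly expressed members per length of transcript in both tumor types. In lymphoma, Abce1, which recycles ribosomes after translation ends, stood at 113 ± 24.3 CPM per kilobase (mean ± SD, n = 7), Abcf1 at 106 ± 10.9 and Abcf2 at 86.9 ± 20.8. Abcf1 differed from Abce1 and from Abcf2 by no more than the spread of the latter 2. In neuroblastoma (n = 8), Abcf1 stood at 67.3 ± 11.1, Abce1 at 48.5 ± 6.28 and Abcf2 at 41.7 ± 7.78 CPM per kilobase. The next places differed between the tumor types. In lymphoma they were taken by Abcf3 and Abcb8, both at 27.3 CPM per kilobase, and in neuroblastoma by the organic anion exporter Abcc5 at 26.5 ± 3.86 and the mitochondrial Abcb6 at 25.4 ± 3.94. Together, the 4 soluble members made up 63.8 ± 1.08% of all ABC expression per kilobase in EuMyc, 61.8 ± 2.15% in EuMycC2ko, 44.5 ± 3.04% in ThMYCN and 42.3 ± 3.65% in ThMYCNC2ko tumors. The classical drug exporters were far lower. Abcb1a and Abcb1b, the mouse counterparts of human ABCB1 (P-glycoprotein), stood at 0.495 ± 0.463 and 3.54 ± 1.96 CPM per kilobase in lymphoma and at 0.209 ± 0.0554 and 0.484 ± 0.304 in neuroblastoma.

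**Figure D1:**
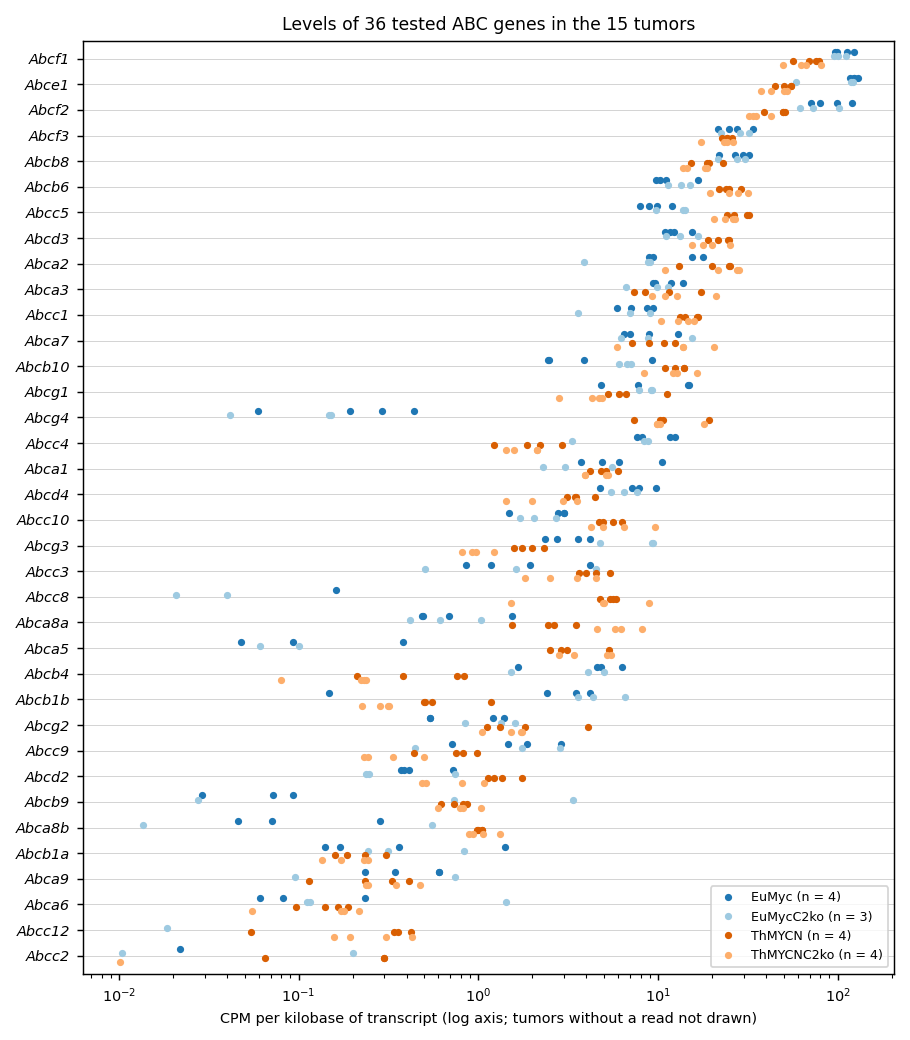
Level of 36 tested ABC genes in every tumor, in CPM per kilobase of its longest RefSeq-matched transcript on a log axis, with 1 point per tumor and colors for the 4 groups; tumors without a read are not drawn. Abce1, Abcf1 and Abcf2 lie at the top in both tumor types, while Abcc8, Abcg4 and Abca5 split into a lymphoma cloud and a neuroblastoma cloud with no tumor between them.

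The comparison of the 2 tumor types asks which transporters each tumor uses. A gene was called at a false discovery rate (FDR) under 0.05 over all tested genes with an absolute log2 fold change over 1, in edgeR's quasi-likelihood test. In EuMyc against ThMYCN, 7 of the 38 tested members were called higher in lymphoma, where 18.3% of all tested genes were, and 14 were called lower, where 27.8% of all genes were. In EuMycC2ko against ThMYCNC2ko, 11 were called higher, against 19.7% of all genes, and 8 lower, against 26.6% of all genes. The 2 groups did not overlap for 22 of 38 members in the first comparison, against 59.4% of all tested genes, and for 23 of 38 in the second, against 54.8%. The median log2 fold change of the members was -0.40 and -0.20, beside -0.04 and -0.05 over all tested genes. Abcc12, which had no read in EuMyc, lay below the first median both as fitted and at its bound, so its bound could not move that median. The 2 comparisons share no tumor, and 12 members were called with the same sign in both of them, 6 higher and 6 lower in lymphoma. One further member, Abcc2, was called in both with opposite signs. Abca5, Abcc8, Abcc12 and Abcg4 passed the filter at 1 CPM only through neuroblastomas. Their place among the tested genes thus already favored a call lower in lymphoma. The share of all tested genes called in both was not counted, so these counts only list members and do not set the family apart.

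**Figure D2:**
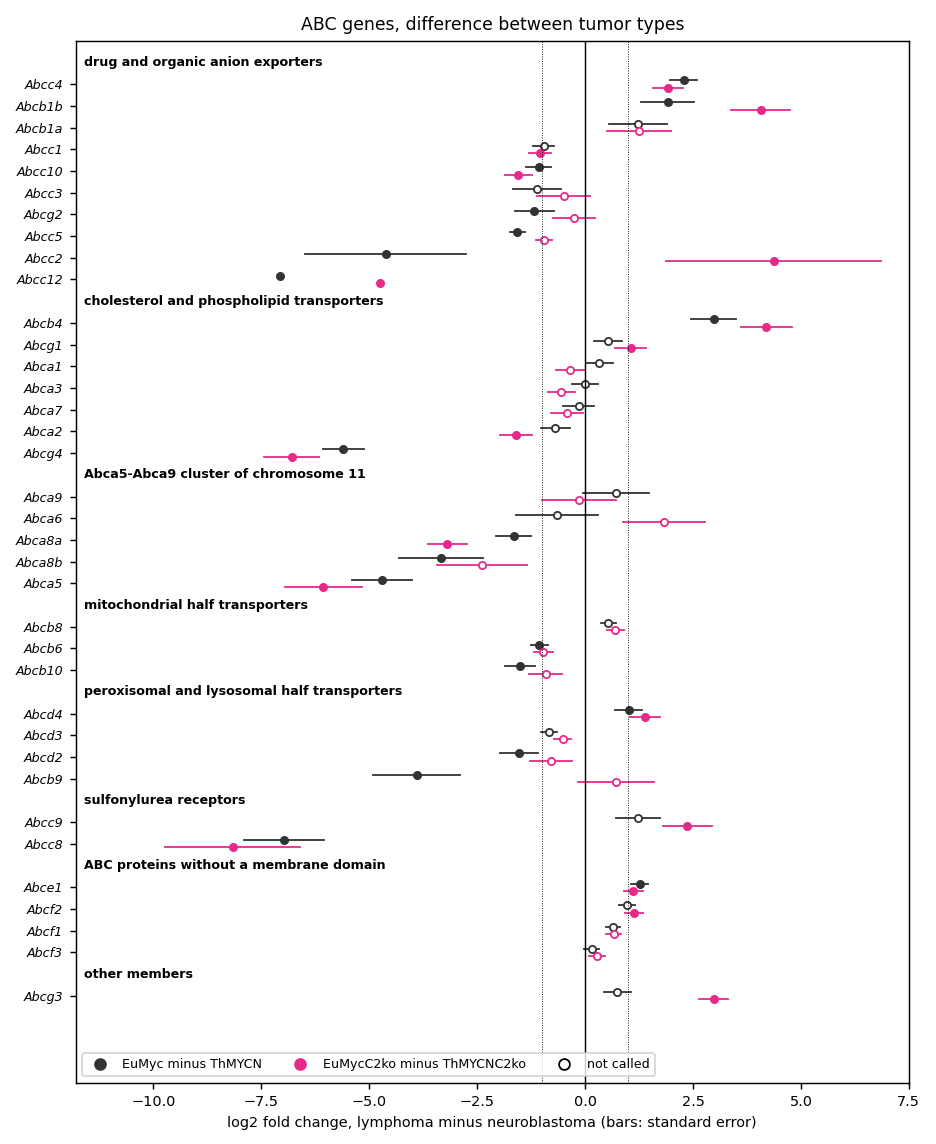
Log2 fold change (lymphoma minus neuroblastoma) of 36 tested ABC genes by role, with standard errors; black is EuMyc minus ThMYCN, pink is EuMycC2ko minus ThMYCNC2ko, filled points were called and dotted lines mark a log2 fold change of 1 in either direction. Abcc8, Abcg4 and Abca5 lie far to the left in both comparisons and Abcb4 farthest to the right in the first; the first point of Abcc12 is a fitted value with no read in EuMyc, and no standard error could be estimated for it.

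Of the 11 drug and organic anion exporters, 10 were tested. In EuMyc against ThMYCN, 2 were called higher and 5 lower, and between the Casp2-/- groups 3 higher and 3 lower. Over all tested genes, 18.3% were called higher and 27.8% lower in the first comparison, and 19.7% and 26.6% in the second. Counts from so few genes do not set a role apart. Abcc4 was higher in lymphoma. It encodes MRP4, which exports cyclic nucleotides, prostanoids and nucleoside analogs, and it lies on chromosome 14 (118482692 to 118706219, minus strand, GRCm38). The 4 EuMyc tumors stood at 67.0, 44.0, 46.5 and 71.4 CPM and the 3 EuMycC2ko tumors at 18.9, 47.5 and 50.1 CPM. The ThMYCN tumors stood at 7.02, 12.6, 16.7 and 10.6 CPM and the ThMYCNC2ko tumors at 12.2, 12.1, 8.20 and 9.02 CPM. Every lymphoma lay above every neuroblastoma, and EuMycC2ko215 was the lowest lymphoma. The log2 difference was 2.28 ± 0.320 (± SE) without Casp2 loss (edgeR FDR 2.90e-05) and 1.91 ± 0.348 with it (edgeR FDR 0.000255).

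Abcc1 lay the other way. It encodes MRP1, an exporter of glutathione conjugates and of drugs such as anthracyclines and vincristine. Its EuMyc values were 40.2, 47.8, 59.1 and 64.1 CPM, and its EuMycC2ko values 24.4, 47.2 and 61.7 CPM. The ThMYCN tumors held 112, 96.5, 113 and 90.3 CPM and the ThMYCNC2ko tumors 108, 99.9, 71.0 and 88.0 CPM, again without overlap between the tumor types. The difference lay on both sides of the fold threshold. It was -0.96 ± 0.240 in the first comparison (edgeR FDR 0.00296), which is short of the threshold, and -1.04 ± 0.261 in the second (edgeR FDR 0.00363), which was called. Without EuMycC2ko215 the second value was -0.69 and was no longer called, and the call was also lost without EuMyc614 (-0.98) or MYCNC2ko118 (-0.96). The first value passed the threshold without EuMyc829 (-1.01), EuMyc835 (-1.07) or MYCN391 (-1.02).

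Abcb1b and Abcb4 were higher in lymphoma and are neighbours on chromosome 5, in the order Abcb1a, Abcb1b, Abcb4 on the plus strand over 299 kilobases. Abcb1b, one of the 2 mouse P-glycoprotein genes, had 10.4, 18.1, 15.1 and 0.637 CPM in EuMyc and 15.4, 28.3 and 18.7 CPM in EuMycC2ko tumors. It had 2.14, 2.18, 2.37 and 5.06 CPM in ThMYCN and 1.37, 1.22, 1.35 and 0.975 CPM in ThMYCNC2ko tumors. EuMyc835 was below all neuroblastomas, while the other 6 lymphomas were above all 8. The log2 difference was 1.91 ± 0.618 (edgeR FDR 0.0166) and, between the Casp2-/- groups, which did not overlap, 4.07 ± 0.685 (edgeR FDR 0.000192). The first call was lost without EuMyc743b, at 1.57 (edgeR FDR 0.0534).

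Abcb4, which encodes the phosphatidylcholine floppase best known from bile canaliculi, had 6.82, 18.6, 19.7 and 25.6 CPM in EuMyc and 6.25, 20.5 and 16.6 CPM in EuMycC2ko tumors. The neuroblastomas held 0.855, 3.12, 1.56 and 3.40 CPM without and 0.936, 0.900, 0.964 and 0.325 CPM with Casp2 loss, and no neuroblastoma reached a lymphoma. Its log2 differences were 2.98 ± 0.517 (edgeR FDR 0.000249) and 4.20 ± 0.587 (edgeR FDR 3.18e-05). The third neighbour, Abcb1a, was not called. It had 0.700, 7.01, 1.81 and 0.849 CPM in EuMyc, 1.56, 4.17 and 1.21 CPM in EuMycC2ko and 0.675 to 1.53 CPM in the 8 neuroblastomas. Its log2 differences of 1.22 ± 0.669 (edgeR FDR 0.127) and 1.25 ± 0.737 (edgeR FDR 0.153) were smaller than 2 standard errors. Without EuMyc743b the first was 0.02. Abcb1a is the form of P-glycoprotein found in blood vessel endothelium. EuMyc743b and EuMycC2ko239, the 2 tumors with the most Abcb1a, also had the highest sums of the 8 endothelial markers, 289 and 253 CPM, against 141 to 219 CPM in the other lymphomas and 33.1 to 98.8 CPM in the neuroblastomas. The part of endothelial RNA in the Abcb1a level was not tested. Of all 50-base windows of the Abcb1a transcript, 18.6% are shared with another gene, mostly Abcb1b, and 19.6% of those of Abcb1b, so reads from these windows could not be assigned to either gene.

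Upstream sequences of Abcc4 and Abcb1b, 2 of the exporters that were higher in lymphoma, are shown with those of Abcf1 and Abca8a because Abcc4, Abcf1 and Abca8a hold the letters of the canonical E-box, CACGTG, that MYC and MAX bind, whereas Abcb1b does not. Each is the 250 bases before the annotated start, 5′ to 3′ on the strand of the gene (RefSeq, GRCm38.p6). Capitals mark CACGTG in the first 3 sequences and, in Abcb1b, the letters GGGCGG (GC box) and CCAAT on either strand.
Abcc4 (chr14:118706220-118706469, minus strand): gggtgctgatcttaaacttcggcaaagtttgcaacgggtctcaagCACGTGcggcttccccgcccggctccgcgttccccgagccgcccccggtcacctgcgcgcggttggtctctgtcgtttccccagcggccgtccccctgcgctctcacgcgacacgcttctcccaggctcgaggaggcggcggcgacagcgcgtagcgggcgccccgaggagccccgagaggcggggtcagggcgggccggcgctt
Abcf1 (chr17:35969751-35970000, minus strand): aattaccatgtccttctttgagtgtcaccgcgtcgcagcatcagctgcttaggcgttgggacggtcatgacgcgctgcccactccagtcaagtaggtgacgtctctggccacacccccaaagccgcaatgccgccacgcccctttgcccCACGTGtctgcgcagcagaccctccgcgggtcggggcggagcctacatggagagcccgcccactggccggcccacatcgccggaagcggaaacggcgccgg
Abca8a (chr11:110095938-110096187, minus strand): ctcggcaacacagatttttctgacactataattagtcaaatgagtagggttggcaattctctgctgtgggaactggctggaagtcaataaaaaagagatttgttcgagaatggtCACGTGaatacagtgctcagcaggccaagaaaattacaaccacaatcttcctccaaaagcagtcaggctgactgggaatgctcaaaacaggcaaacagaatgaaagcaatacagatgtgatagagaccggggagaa
Abcb1b (chr5:8797897-8798146, plus strand): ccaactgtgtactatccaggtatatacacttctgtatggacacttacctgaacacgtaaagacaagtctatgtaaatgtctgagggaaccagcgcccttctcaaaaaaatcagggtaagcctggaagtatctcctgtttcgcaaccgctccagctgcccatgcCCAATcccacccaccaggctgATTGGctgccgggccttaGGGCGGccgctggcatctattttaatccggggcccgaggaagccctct
The E-box begins 205 bases before the start in Abcc4, 101 in Abcf1 and 136 in Abca8a, and the 2 CCAAT matches of Abcb1b begin 87 and 66 bases and its GC box 48 bases before the start. In windows of 300 bases, from 250 before to 50 after each start, CACGTG stood in 2349 of 32851 promoters (7.15%) and in 6 of the 45 promoters of the 38 members that could be matched, namely those of Abca1, Abca15, Abca8a, Abca8b, Abcc4 and Abcf1. The palindrome reads the same on both strands. GGGCGG stood in 35.7% of all promoters and in 21 of these 45, from 18 members, and CCAAT in 37.4% of all and in 16 of these 45, from 15 members. The members with CACGTG did not share a direction. Abcc4 was called higher in lymphoma in both comparisons, Abca8a was called lower in both, Abca8b was called lower in the first, Abca1 and Abcf1 were not called, and Abca15 had no read. A match of letters is a description and not a binding site.

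Abcc10, which encodes MRP7, an exporter of taxanes, had 15.7, 7.87, 15.7 and 14.5 CPM in EuMyc and 8.99, 10.8 and 14.2 CPM in EuMycC2ko tumors. Its neuroblastoma values were 24.6, 29.6, 33.2 and 26.1 CPM without and 33.9, 26.2, 22.3 and 50.9 CPM with Casp2 loss, all above the lymphomas. The log2 differences were -1.07 ± 0.290 (edgeR FDR 0.00505) and -1.55 ± 0.316 (edgeR FDR 0.000890), and the first call was lost without EuMyc743b (-0.88) or MYCN332 (-0.99). Its exons overlap Dlk2 on the other strand, over 51 bases, and the libraries do not keep strand. Abcc5, which encodes MRP5, an exporter of cyclic nucleotides, was the strongest drug exporter of the neuroblastomas. It ranged from 119.6 to 188 CPM in the 8 neuroblastomas and from 45.9 to 82.0 CPM in the 7 lymphomas, with a called difference of -1.57 ± 0.172 in the first comparison (edgeR FDR 1.87e-06) and -0.96 ± 0.186 in the second (edgeR FDR 0.000511), short of the fold threshold. The second passed without EuMycC2ko245 (-1.05) or MYCNC2ko118 (-1.04).

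Abcg2, the breast cancer resistance protein that also marks stem cells and endothelium, was called lower in EuMyc than in ThMYCN (-1.18 ± 0.451, edgeR FDR 0.0351), a call that rested on MYCN175. That tumor had 23.5 CPM and the other 3 ThMYCN tumors 6.41 to 10.4 CPM, and the value without it was -0.62 (edgeR FDR 0.221). The call was also lost without EuMyc829 (-0.98) or EuMyc835 (edgeR FDR 0.0921). Abcc3, a liver-type exporter of glucuronides, was not called in either comparison (-1.11 ± 0.559 and -0.50 ± 0.608) but passed in the first without EuMyc743b (-1.72, edgeR FDR 0.0179). Abcc12, or MRP9, whose substrates are poorly known, had no read in the 4 EuMyc tumors and 1 read in the EuMycC2ko tumors, in EuMycC2ko239. It had 0.244, 1.53, 1.90 and 1.61 CPM in ThMYCN and 0.864, 0.707, 1.93 and 1.38 CPM in ThMYCNC2ko tumors. At a floor of 3 reads per library it was at least 4.92-fold lower in EuMyc than in ThMYCN (edgeR FDR 0.000215). Abcc12 passed the filter at 1 CPM through neuroblastomas alone, so this FDR is no separate support for the direction. The ratio of ThMYCNC2ko to EuMycC2ko, 60 reads against 1, was 31.1 with a counting interval of 5.37 to 1248 (exact binomial, 95%, counting error only).

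**Figure D3:**
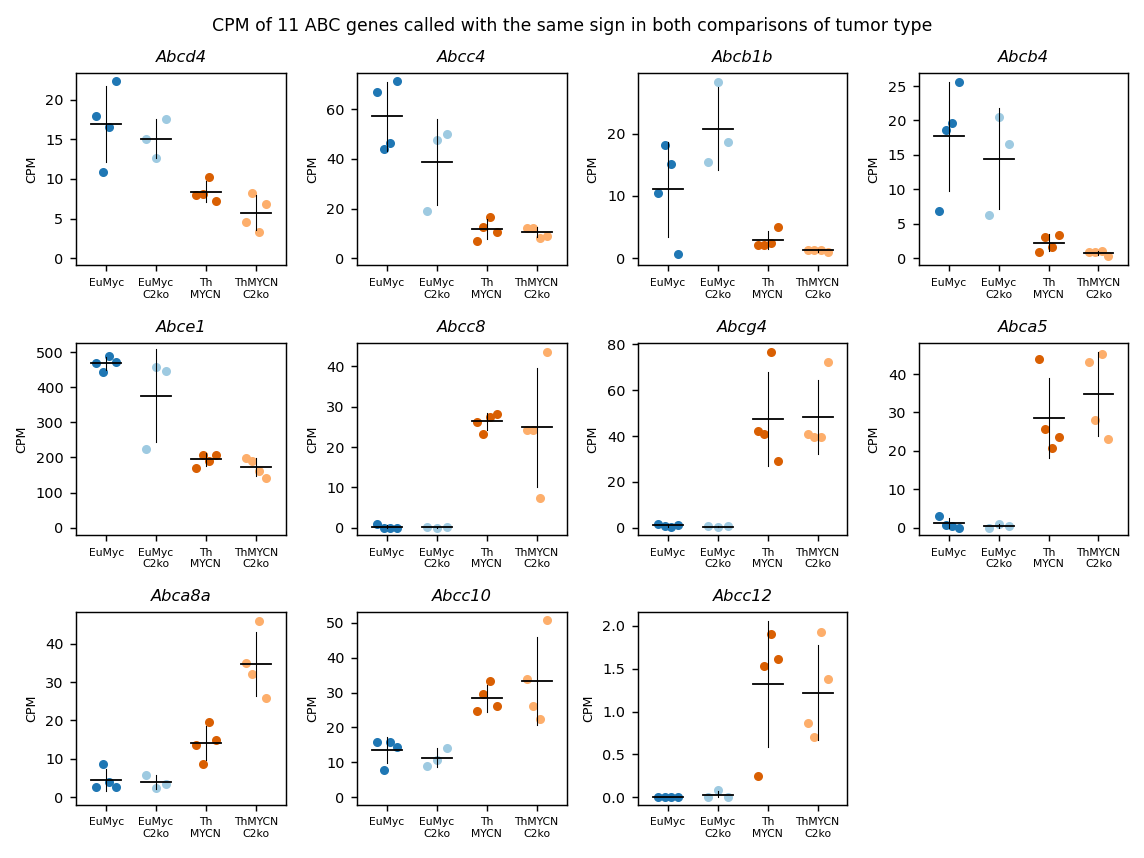
CPM of 11 members called with the same sign in both comparisons, 1 point per tumor on linear axes that include 0, with horizontal lines for group means and vertical lines for 1 SD in either direction. The first 5 panels, from Abcd4 to Abce1, are the members higher in lymphoma, and the other 6, from Abcc8 to Abcc12, are those higher in neuroblastoma.

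Of 10 transporters of cholesterol and phospholipids 7 were tested. In the first comparison 1 was called higher and 1 lower, and in the second 2 higher and 2 lower. The shares of all tested genes were 18.3% higher and 27.8% lower in the first, and 19.7% and 26.6% in the second. Abcg4, a sterol exporter of neurons and astrocytes, stood at 42.3, 41.0, 76.9 and 29.3 CPM in ThMYCN and at 41.1, 39.5, 39.6 and 72.5 CPM in ThMYCNC2ko tumors. The lymphomas stood at 1.75, 0.770, 0.236 and 1.17 CPM in EuMyc and 0.586, 0.167 and 0.606 CPM in EuMycC2ko. No 2 values of the tumor types came near each other, and the log2 differences of -5.60 ± 0.469 (edgeR FDR 2.27e-07) and -6.80 ± 0.642 (edgeR FDR 4.74e-07) had the smallest FDR of the 38 members in each comparison. Its close relative Abcg1, the exporter of cholesterol to high density lipoprotein in macrophages, was called higher in EuMycC2ko than in ThMYCNC2ko tumors (1.06 ± 0.359, edgeR FDR 0.0182) but not in the first comparison (0.53 ± 0.330, edgeR FDR 0.182), and the call was lost without MYCNC2ko118 (0.91). Its values were 28.1 to 86.1 CPM in EuMyc, 45.5 to 54.3 in EuMycC2ko, 30.5 to 65.4 in ThMYCN and 16.5 to 28.5 CPM in ThMYCNC2ko tumors. The macrophage markers (7 of 8 in the tables, none at 0) summed to 555 to 1206, 335 to 1690.1, 639 to 930.0 and 376 to 891 CPM in these groups, and their part in the Abcg1 level was not tested.

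Abca2, a lipid transporter of lysosomes that is abundant in nervous tissue, was lower in EuMycC2ko than in ThMYCNC2ko tumors. The former had 31.3, 70.9 and 72.9 CPM and the latter 173, 228, 87.9 and 221 CPM, a difference of -1.60 ± 0.369 (edgeR FDR 0.00232). In the first comparison it was -0.69 ± 0.339 (edgeR FDR 0.0943). Abca1, the sterol exporter that lipidates apolipoprotein A-I, Abca3, which loads surfactant lipid, and Abca7 were not called in either comparison. Abca1 ranged from 23.5 to 108 CPM over the lymphomas and from 40.4 to 61.3 CPM over the neuroblastomas, so that the neuroblastomas lay within the lymphomas. Of the Abca3 windows, 14.3% are shared with another gene, mostly D330041H03Rik, which overlaps it on the other strand, and otherwise Abca17.

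Abca5, Abca6, Abca9, Abca8a and Abca8b lie beside each other on chromosome 11 over 406 kilobases, all on the minus strand, and encode poorly studied relatives of the lipid exporters. All 5 were tested. In lymphoma, 3 were called lower in the first comparison and 2 in the second, against 27.8% and 26.6% of all tested genes. Abca5 was the member of this cluster that most separated the tumor types, with 43.9, 25.8, 20.7 and 23.7 CPM in ThMYCN and 43.1, 28.1, 45.3 and 23.1 CPM in ThMYCNC2ko tumors. It had 3.15, 0.770, 0.394 and 0 CPM in EuMyc and 0, 0.835 and 0.505 CPM in EuMycC2ko tumors. The log2 differences were -4.70 ± 0.702 (edgeR FDR 8.43e-05) and -6.06 ± 0.901 (edgeR FDR 7.50e-05). EuMyc614 was the highest lymphoma, and without it the first difference was -6.07. Without EuMycC2ko239 the second was -6.71.

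Abca8a had 2.71, 8.73, 3.86 and 2.76 CPM in EuMyc, 5.86, 2.34 and 3.43 in EuMycC2ko, 13.6, 8.64, 19.6 and 14.8 in ThMYCN and 35.1, 32.2, 46.0 and 25.8 CPM in ThMYCNC2ko tumors. EuMyc743b and MYCN235 were all but equal, so the first pair of groups overlapped. The differences were -1.65 ± 0.403 (edgeR FDR 0.00278) and -3.19 ± 0.443 (edgeR FDR 5.52e-05). Abca8b was even across the neuroblastomas, at 6.56 to 9.83 CPM, and below them in every lymphoma, at 0 to 2.10 CPM in EuMyc and 0, 4.09 and 0.101 CPM in EuMycC2ko. It was called in the first comparison (-3.34 ± 0.974, edgeR FDR 0.0108, and -4.67 without EuMyc614) and not in the second (-2.38 ± 1.04, edgeR FDR 0.0722), where it passed at -6.66 without EuMycC2ko239 (edgeR FDR 0.00121) and at -2.38 without EuMyc829 (edgeR FDR 0.0436). Abca9 and Abca6 were not called, although Abca6 passed in the second comparison without EuMycC2ko215 (2.35, edgeR FDR 0.0452). EuMycC2ko239 had the most Abca6, 7.43 CPM against 0.586 and 0.606 CPM in the other 2 EuMycC2ko tumors, and also the most Abca8b and Abca9 of all lymphomas (4.09 and 4.76 CPM). Without it, the second comparison gave -0.38 in place of 1.83 for Abca6, and -2.46 (edgeR FDR 0.0302) in place of -0.14 for Abca9. Of the EuMycC2ko tumors it also had the highest sum of the 8 fibroblast markers, 864 CPM against 448 and 369 CPM. The sum was higher in EuMyc614 (1419 CPM) and EuMyc743b (1130.1 CPM), where Abca6 stood at 1.22 and 0.428 CPM. The part of fibroblast RNA in these values was not tested. Over all groups the fibroblast sums were 428 to 1419 CPM in EuMyc, 369 to 864 in EuMycC2ko, 415 to 652 in ThMYCN and 286 to 825 CPM in ThMYCNC2ko tumors, with none of the 8 markers at 0 in a group.

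Among the mitochondrial transporters, Abcb6 and Abcb10 were called lower in lymphoma in the first comparison and not in the second. Abcb10, an erythroid factor of heme synthesis, was called lower in EuMyc (19.4 against 55.2 CPM, -1.51 ± 0.350, edgeR FDR 0.00192, and -2.12 without EuMyc743b) and not called in the second comparison (-0.91 ± 0.379, edgeR FDR 0.0540), where it passed without MYCNC2ko176 (-1.07). Abcb6, a porphyrin transporter, differed by -1.06 ± 0.203 in the first comparison, lower in lymphoma (edgeR FDR 0.000375) and by -0.97 ± 0.220 in the second (edgeR FDR 0.00173). The call of Abcb6 was lost in the first without EuMyc614 (-0.95), EuMyc829 (-0.96) or MYCN175 (-0.97), and it was gained in the second without MYCNC2ko144 (edgeR FDR 0.00338) or MYCNC2ko176 (-1.10). For Abcb6, 90.3% of its 50-base windows also lie in Gm29253, a readthrough model that is not in the count tables. Abcb8, the subunit of a mitochondrial potassium channel, was higher in lymphoma by 0.54 ± 0.183 and 0.70 ± 0.198 and was not called.

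Among the peroxisomal and lysosomal transporters, Abcd4 was called in both comparisons. Abcd2, a peroxisomal importer of fatty acids, was called lower in EuMyc than in ThMYCN (2.62 against 7.57 CPM, -1.53 ± 0.438, edgeR FDR 0.00775) and not in the second comparison (-0.79 ± 0.484, edgeR FDR 0.178), where it passed without EuMycC2ko239 (-1.51, edgeR FDR 0.0248). Abcd3, the most abundant protein of the peroxisomal membrane, differed by -0.83 ± 0.188 and -0.52 ± 0.204 and was not called. Abcd4, which moves cobalamin out of the lysosome, had 18.0, 10.9, 16.5 and 22.4 CPM in EuMyc, 15.0, 12.7 and 17.6 in EuMycC2ko, 8.00, 8.06, 10.3 and 7.23 in ThMYCN and 4.61, 8.22, 3.28 and 6.82 CPM in ThMYCNC2ko tumors. All lymphomas were above all neuroblastomas. The first difference, 1.01 ± 0.315 (edgeR FDR 0.0121), lay at the fold threshold and was not called without EuMyc835 (0.85), MYCN175 (0.99), MYCN235 (0.99) or MYCN391 (0.95), and the second was 1.39 ± 0.343 (edgeR FDR 0.00262).

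The sulfonylurea receptors are the regulatory subunits of ATP-sensitive potassium channels. Of the pair, Abcc8 alone separated the tumor types without overlap. Abcc8 (SUR1), the receptor of beta cells and neurons, had 26.3, 23.3, 27.5 and 28.3 CPM in ThMYCN and 24.3, 24.2, 7.42 and 43.7 CPM in ThMYCNC2ko tumors. The lymphomas had 9 reads in EuMyc614, 1 in EuMycC2ko215 and 1 in EuMycC2ko245, and none in the other 4. The difference was -6.98 ± 0.922 (edgeR FDR 9.15e-06) in the first comparison, and -11.36 without EuMyc614, which left EuMyc without a read. The ratio of ThMYCNC2ko to EuMycC2ko, 1328 reads against 2, was 344 with a counting interval of 95 to 2843 (edgeR FDR 3.17e-05), and the fitted difference of -8.16 became -7.35 without EuMycC2ko239. EuMyc614 also had the highest neuroblast marker sum of the lymphomas, 14.8 CPM, with EuMycC2ko215 next at 13.3 CPM, against 2859 CPM or more in each neuroblastoma. The part of neuroblast RNA in the reads of Abcc8, Abcg4 and Abca5 in the lymphomas was not tested. Kcnj11, the pore that pairs with Abcc8, was also called lower in lymphoma, at 1.45 to 6.30 CPM in the neuroblastomas and 0 to 0.175 CPM in the lymphomas (-5.67 ± 1.10, edgeR FDR 4.80e-05, and -5.85 ± 1.14, edgeR FDR 0.000117). Abcc9 (SUR2), the receptor of muscle and pericytes, was called higher in EuMycC2ko than in ThMYCNC2ko tumors (12.6 against 2.45 CPM, 2.37 ± 0.566, edgeR FDR 0.00226). In the first comparison it was 1.22 ± 0.515 (edgeR FDR 0.0542), and it passed there without EuMyc614 (1.52), EuMycC2ko215 (1.27) or EuMycC2ko239 (1.27). Kcnj8, the pore that pairs with it, was not called (1.39 ± 0.664 and 1.65 ± 0.738). The 8 markers of pericytes and smooth muscle summed to 74.0 to 154 CPM in EuMyc, 65.2 to 160.0 in EuMycC2ko, 180.3 to 227 in ThMYCN and 99.0 to 146 CPM in ThMYCNC2ko tumors, with no marker at 0 in a group.

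Of the 4 soluble members, 1 was called higher in lymphoma in the first comparison and 2 in the second. The shares of all tested genes were 18.3% and 19.7%. Only Abce1 was called in both. It had 469, 445, 490.1 and 472 CPM in EuMyc, 223, 459 and 446 in EuMycC2ko, 171, 208, 191 and 208 in ThMYCN and 199, 191, 161 and 142 CPM in ThMYCNC2ko tumors. EuMycC2ko215 lay near the neuroblastomas, although above them. The differences were 1.27 ± 0.195 (edgeR FDR 5.26e-05) and 1.12 ± 0.211 (edgeR FDR 0.000315), the latter not called without EuMycC2ko245 (0.97). Abcf2 was higher by 0.97 ± 0.193 (edgeR FDR 0.000529) and by 1.13 ± 0.209 (edgeR FDR 0.000261). The first passed the fold threshold in 6 fits with 1 tumor left out, at up to 1.08, and the second missed it without EuMycC2ko245 (0.89). Abcf1, a factor of translation initiation, was higher by 0.64 ± 0.164 (edgeR FDR 0.00354) and 0.66 ± 0.177 (edgeR FDR 0.00487), with no overlap between the tumor types, and Abcf3 by 0.15 ± 0.176 and 0.28 ± 0.190, within its spread.

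The second question of the design is how tumors with and without Casp2 differ within each type. Onset was at 13 to 19 weeks in EuMyc and at 8 to 12 weeks in EuMycC2ko tumors. In lymphoma, onset and genotype therefore cannot be told apart. The onset ranges of the neuroblastoma groups overlapped, at 10 to 21 and 15 to 24 weeks. EuMycC2ko215 was also the only female lymphoma. No member was called in neuroblastoma, where the quasi-likelihood test called 0.0336% of all tested genes, nor in lymphoma, where it called 0.141%. That test did not call Casp2 itself either. Casp2 differed by -0.79 ± 0.228 in neuroblastoma (edgeR quasi-likelihood FDR 0.327) and by -1.35 ± 0.247 in lymphoma (edgeR quasi-likelihood FDR 0.0536). A member that was not called is therefore not shown to be unchanged. The likelihood ratio test, which takes the estimated spread as known and called 0.813% and 1.44% of all genes, called no member in neuroblastoma and 2 in lymphoma, Abcb9 and Abcg3. For Casp2, its FDR was 0.101 in neuroblastoma and 0.000400 in lymphoma. DESeq2 also called 0 and 2 members, against 0.780% and 1.36% of all genes. At an unadjusted p under 0.05 (edgeR quasi-likelihood) there were 6 of 38 members in each, against 6.77% of all genes in neuroblastoma and 8.53% in lymphoma. ThMYCNC2ko and ThMYCN tumors did not overlap for 5 members, against 6.62% of all tested genes, with Abca8a above and Abcb1b, Abcd2, Abcg1 and Abcg3 below. Marker sums of vessel cells and of the tumor lineage moved with this contrast, with all 8 markers of each list measured and none at 0 in a group. The endothelial sum was 57.6 to 98.8 CPM in ThMYCN and 33.1 to 50.0 CPM in ThMYCNC2ko tumors, and that of pericytes and smooth muscle was 180.3 to 227 and 99.0 to 146 CPM. The sympathetic neuroblast sum was 4004 to 4635 and 2859 to 3839 CPM. The groups did not overlap in any of these 3 sums, and their part in the member levels was not tested. EuMycC2ko and EuMyc did not overlap for 1 member, Abcg3, against 3.70% of all genes. The smallest FDR of a member was 0.327 in neuroblastoma and 0.124 in lymphoma.

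Abcg3 is a rodent relative of Abcg2 of unclear function on chromosome 5 (104935057 to 104982718, minus strand). It was the only member without overlap between genotypes in both tumor types. The share of all tested genes without overlap in both was not counted, so this only describes Abcg3. The EuMycC2ko tumors had 28.5, 14.4 and 28.1 CPM and the EuMyc tumors 7.17, 12.7, 10.9 and 8.28 CPM. The ThMYCNC2ko tumors had 2.45, 2.96, 2.80 and 3.74 CPM and the ThMYCN tumors 6.05, 5.30, 4.79 and 7.04 CPM. Every Casp2-/- lymphoma was thus above every EuMyc lymphoma, and every Casp2-/- neuroblastoma below every ThMYCN neuroblastoma. The log2 difference with Casp2 loss was 1.28 ± 0.326 in lymphoma (edgeR quasi-likelihood FDR 0.170, likelihood ratio FDR 0.0315) and -0.96 ± 0.309 in neuroblastoma (quasi-likelihood FDR 0.427, likelihood ratio FDR 0.247), where neither test passed. The difference between these differences, tested as an interaction, was 2.23 ± 0.449, with a quasi-likelihood FDR of 0.135 and a likelihood ratio FDR of 0.00507 in edgeR. The interaction passed the likelihood ratio test in all 15 fits that left out 1 tumor, at 2.06 to 2.51, whereas the lymphoma difference passed in 9 of 15, at 1.12 to 1.55. It was lost without EuMyc614, EuMyc829, EuMyc835, EuMycC2ko215, EuMycC2ko245 or MYCN235. Abcg3 also separated the Casp2-/- tumors of the 2 types by 2.98 ± 0.331 (edgeR FDR 2.63e-06), against 0.75 ± 0.304 without Casp2 loss (edgeR FDR 0.0442), which is short of the fold threshold. T cell markers summed to 1318, 239 and 135 CPM in the 3 EuMycC2ko tumors, in the order of the Abcg3 values above. The part of T cell RNA in the Abcg3 level was not tested.

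**Figure D4:**
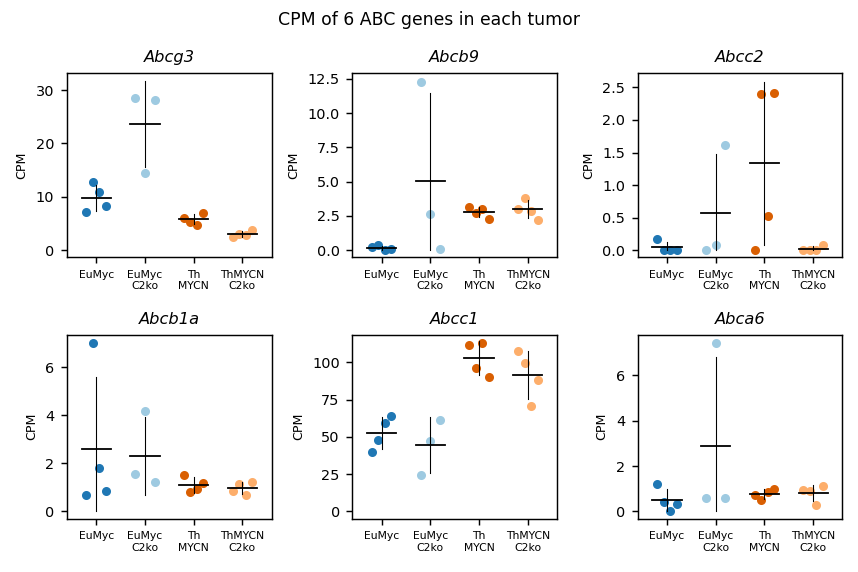
CPM of Abcg3, Abcb9, Abcc2, Abcb1a, Abcc1 and Abca6, 1 point per tumor on linear axes that include 0, with group means (horizontal lines) and 1 SD in either direction (vertical lines). Each of the 3 EuMycC2ko tumors has more Abcg3 than any EuMyc tumor, with 14.4 against 12.7 CPM at the nearest. Abcb9 and Abca6 are high in 1 EuMycC2ko tumor each, at 12.3 and 7.43 CPM.

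Abcb9, a lysosomal peptide transporter related to the TAP proteins of antigen presentation, rested on fewer tumors. EuMycC2ko215 had 12.3 CPM (63 reads), EuMycC2ko239 2.67 CPM (32 reads) and EuMycC2ko245 0.101 CPM (1 read), beside 0.262, 0.342, 0 and 0.106 CPM in EuMyc. The groups overlapped, since EuMycC2ko245 lay within EuMyc. The log2 difference was 4.71 ± 1.06 (edgeR quasi-likelihood FDR 0.124, likelihood ratio FDR 0.00109). Without EuMycC2ko215 it was 2.93 and passed neither test, and without EuMycC2ko245 it was 5.29 and passed both (quasi-likelihood FDR 0.00499). EuMycC2ko215 had the highest T cell and macrophage marker sums of the lymphomas, 1318 and 1690.1 CPM, and the shallowest library. The part of these in the Abcb9 level was not tested. The neuroblastomas were even, at 2.29 to 3.18 CPM in ThMYCN and 2.19 to 3.79 CPM in ThMYCNC2ko tumors. Abcb9 was called lower in EuMyc than in ThMYCN (-3.90 ± 1.01, edgeR FDR 0.00315) but not in the second comparison of tumor types (0.72 ± 0.873, and -1.02 without EuMycC2ko215). Its interaction was 4.62 ± 1.33 (quasi-likelihood FDR 0.335, likelihood ratio FDR 0.0396 in edgeR).

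Abcc2, the canalicular organic anion exporter MRP2, had few reads or none in most tumors, and its calls rested on few tumors. It had 33, 9 and 39 reads in MYCN235, MYCN332 and MYCN391 (2.40, 0.519 and 2.41 CPM), 16 reads in EuMycC2ko245 (1.62 CPM), 2 in EuMyc614 and 1 each in EuMycC2ko239 and MYCNC2ko180, and none in the other 8 tumors, MYCN175 among them. The ratio of ThMYCN to EuMyc was 28.8 (counting interval 7.71 to 242) and that of EuMycC2ko to ThMYCNC2ko 32.8 (5.14 to 1371), which are the 2 calls of opposite sign (edgeR FDR 0.0147 and 0.0404). The second was lost without MYCNC2ko118 (edgeR FDR 0.0882), MYCNC2ko144 (0.0919) or MYCNC2ko176 (0.0781), and without EuMycC2ko245, MYCN235 or MYCN391 too few tumors exceeded 1 CPM for a test. The ratio of ThMYCN to ThMYCNC2ko was 66.3 (11.6 to 2652) and did not pass (edgeR quasi-likelihood FDR 0.327, likelihood ratio FDR 0.115). These intervals cover counting error only, and the spread within ThMYCN was wider.

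The interaction over all members called none of 38 with the quasi-likelihood test, where 0.0538% of all genes were called, and 3 with the likelihood ratio test (Abcc2, Abcg3 and Abcb9), where 0.914% were. DESeq2 called 2, against 0.827% of all genes, and 6 members had an unadjusted quasi-likelihood p under 0.05, against 7.57% of all genes. With each tumor left out in turn, the likelihood ratio test called the interaction of Abcb9 in 3 of 15 fits (2.83 to 5.18) and that of Abcc2 in 6 of the 12 fits in which it could be tested (8.56 to 11.44).

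The members linked to MYCN in human tumors showed no call with Casp2 loss in either tumor type. In neuroblastoma, the log2 differences were -0.16 ± 0.240 for Abcc1, -0.18 ± 0.324 for Abcc4, -0.17 ± 0.685 for Abcb1a and -1.25 ± 0.646 for Abcb1b (edgeR FDR 0.807), although for Abcb1b all 4 ThMYCNC2ko tumors lay below all 4 ThMYCN tumors. In lymphoma they were -0.24 ± 0.262 for Abcc1, -0.55 ± 0.345 for Abcc4, -0.15 ± 0.722 for Abcb1a and 0.91 ± 0.658 for Abcb1b (edgeR FDR 0.756). Abca8a differed in neuroblastoma by 1.29 ± 0.394 (edgeR quasi-likelihood FDR 0.370, likelihood ratio FDR 0.122), with all 4 ThMYCNC2ko tumors above all 4 ThMYCN tumors. The 8 Schwann cell markers summed to 85.0 to 181 CPM in ThMYCN and 139 to 185 CPM in ThMYCNC2ko tumors, and their part in the Abca8a level was not tested. In lymphoma, Abca6 differed by 2.56 ± 0.988 (edgeR FDR 0.441), which became 0.28 without EuMycC2ko239.

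Genes that work with these transporters were read from lists. Of their 43 tested genes, 21 were called in each comparison of tumor types. Of all tested genes, 18.3% were called higher and 27.8% lower in the first comparison, and 19.7% and 26.6% in the second. Tap1 and Tap2, the peptide pump of antigen presentation and ABC genes by sequence but not by symbol, were called higher in lymphoma in both comparisons, Tap1 by 4.18 ± 0.305 and 4.99 ± 0.332 and Tap2 by 3.87 ± 0.290 and 4.68 ± 0.314, and neither was called with Casp2 loss. Of 13 tested genes of sterol efflux and its LXR regulators, 3 were called higher and 1 lower in EuMyc than in ThMYCN, and 5 higher and 1 lower between the Casp2-/- groups. Those called in both were Mylip (2.42 ± 0.245 and 2.42 ± 0.266), which degrades the LDL receptor, Lpcat3 (1.57 ± 0.237 and 2.10 ± 0.256), which remodels phospholipids, and, lower in lymphoma, Apoe (-1.62 ± 0.428 and -1.15 ± 0.462), the sterol carrier. Of 17 tested genes of glutathione synthesis and conjugation, which make substrates of Abcc1 and Abcc2, 6 were called higher and 4 lower in the first comparison and 5 and 3 in the second. Gclc, the rate-limiting enzyme of glutathione synthesis, was higher in lymphoma (1.54 ± 0.249 and 2.05 ± 0.270), and the conjugating enzyme Gstm5 lower (-5.45 ± 0.417 and -5.48 ± 0.471). Of 9 tested regulators of exporter genes, Myc and Nfe2l2 were called higher and Mycn and Ahr lower in both. Nfe2l2, the oxidative stress factor that induces several Abcc genes, differed by 2.43 ± 0.269 and 2.41 ± 0.291. The mouse Myc gene stood at 1238 to 1914 CPM in EuMyc, at 498, 1346 and 1729 CPM in EuMycC2ko and at 4.69 to 15.6 CPM in the neuroblastomas, and EuMycC2ko215 was the lowest lymphoma here too. Mouse Mycn stood at 229.9 to 430.1 CPM in the neuroblastomas. Reads were mapped to the mouse genome, and the part of transgene reads in the Myc and Mycn counts was not tested. Of the 43 tested genes of these lists, none was called with Casp2 loss or in the interaction, by edgeR's quasi-likelihood or likelihood ratio test or by DESeq2. At an unadjusted quasi-likelihood p under 0.05 there were 2 in neuroblastoma, 3 in lymphoma and 3 in the interaction. The shares of all tested genes were 6.77%, 8.53% and 7.57%.

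The 12 members that were not tested had few reads or none. No read was found for Abca12, Abca15, Abcb5 and Abcb11 in any of the 15 tumors, which allows up to 0.170 to 0.607 CPM per tumor (3 reads, counting error only). Abcb11 is the bile salt export pump and Abca12 the lipid transporter of the skin barrier. Abca13, Abca17, Abca4, Abcc6, Abca14, Abca16, Abcg5 and Abcg8 had reads in 1 to 11 tumors and at most 1.76 CPM, which was Abcc6 in EuMycC2ko215. Abcg8, which pairs with Abcg5 as the sterol pump of liver and gut, had reads in all 8 neuroblastomas, up to 0.977 CPM, and in 1 lymphoma, while Abcg5 had 6 reads in all.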

How the data were processed

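The authors sequenced poly(A) RNA as single-end reads of 50 bases, mapped them with STAR to mm10 (GRCm38) and deposited raw read counts per gene for each tumor. Versions of STAR and of its annotation are not given in the sources used here. Each file counts reads on either strand and on each strand, and the column for the second strand, which holds 48.8 to 49.3% of the reads of both strand columns, was used. Each gene thus has about 1 of every 2 of its reads. A further EuMycC2ko tumor that the study set aside as an outlier was not analysed here.

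Groups came from the sample labels. All 15 tumors entered 1 negative binomial model with 4 group means in edgeR 4.0.16 (R 4.3.3, TMM normalization, quasi-likelihood test) over genes above 1 CPM in at least 3 tumors, with Benjamini-Hochberg adjustment over all 14880 of them, and an interaction tested the difference between genotype effects. Standard errors (SE) came from the weights of the model. CPM of genes were counts per 1000000 of the TMM-scaled library size, the total over tested genes times a TMM factor of 0.962 to 1.04. The filter at 1 CPM and the range of 0.170 to 0.607 CPM for 3 reads used plain library totals. CPM per kilobase used the longest RefSeq-matched transcript (GENCODE M21, GRCm38). Ratios of few reads have exact binomial 95% intervals for counting error. DESeq2 1.42.0, the likelihood ratio test, other scalings and filters, reads on either strand, sex of the mouse, 1 tumor type per fit and each tumor left out were alternatives. The code was tested on simulated counts. No replicates were near-identical, the lowest chi-square per degree of freedom of a pair being 16.2.

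Members and lists were chosen with earlier results of these data known. Values in every tumor were given for the 4 exporters Abcb1a, Abcb1b, Abcc1 and Abcc4, for 11 of the 12 members with the largest change called with 1 sign in both comparisons of tumor type, for those called in a genotype comparison by either edgeR test, for the 3 with the smallest p in each genotype comparison and, as levels per kilobase, for the top 5 of each tumor type. The results of 2 members are not reported here one by one. Further members were described by role after their values were seen.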

Additional observations from a re-analysis of the deposited data

Results flagged for a closer look

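In groups of 4 tumors, the highest or lowest tumor stood apart from the others by Dixon's 95% criterion in 9 of 107 pairs of a tested ABC gene and a group. Chance flags about 1 in 20, or 5.35 pairs, only where values are spread normally. In the flags of Abcc2 and Abcc8 the other tumors of the group had no read, so that any read was flagged. The 9 pairs therefore cannot be read as an excess over chance. EuMyc743b stood apart with the most Abcd2 of its group (4.02 CPM, others 2.05 to 2.27) and the least Abcc10 (7.87 CPM, others 14.5 to 15.7). EuMyc614 was the only EuMyc tumor with reads of Abcc8 (0.787 CPM) and Abcc2 (0.175 CPM). MYCN391 had the most Abcb1b of ThMYCN (5.06 CPM, others 2.14 to 2.37) and MYCN175 the least Abcf2 (99.9 CPM, others 128 to 131). MYCNC2ko180 had the most Abcg4 (72.5 CPM, others 39.5 to 41.1), the least Abcb4 (0.325 CPM, others 0.900 to 0.964) and the only Abcc2 read of ThMYCNC2ko (0.0812 CPM).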

How the results depend on the processing

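The counts of members called between tumor types stayed within 1.5 times their main values under all alternatives, and with 1 tumor left out they ranged from 6 to 9 (higher) and 12 to 14 (lower) for EuMyc against ThMYCN and from 8 to 13 and 7 to 11 between the Casp2-/- groups. For EuMycC2ko against EuMyc, 2 members were called higher by the likelihood ratio test and 2 by DESeq2, and 0 to 1 with a tumor left out. For the interaction these were 3, 2 and 0 to 1. The likelihood ratio test with each tumor left out, an alternative chosen after seeing the data, called 0 to 3 members higher and 0 to 1 lower for EuMycC2ko against EuMyc, 0 to 1 higher and 0 to 1 lower for ThMYCNC2ko against ThMYCN and 1 to 3 higher in the interaction. DESeq2 gave no adjusted p for Abca6 and Abca8b in any comparison, nor for Abcc2 in EuMycC2ko against EuMyc.

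Values that changed sign were not called. The log2 difference of Abcb1a for EuMycC2ko against EuMyc was 0.02 with reads on either strand and -0.90 to 1.06 with a tumor left out, and for ThMYCNC2ko against ThMYCN -0.29 to 0.03. Ranges with a tumor left out also crossed 0 for Abca6 (-0.38 to 2.35) and Abcb9 (-1.02 to 1.29) between the Casp2-/- tumor types, for Abcc1 in EuMycC2ko against EuMyc (-0.55 to 0.06) and for Abcc4 in ThMYCNC2ko against ThMYCN (-0.35 to 0.04). Between the Casp2-/- groups, Abcc2 was not called by DESeq2 (4.57), with reads on either strand (2.86) or with sex as a covariate (3.04), nor Abce1 with sex (0.97). The causes were not tested. EuMycC2ko215, the shallowest library, was the only female lymphoma. No paired analysis was possible because the labels give mouse numbers that the groups do not share.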
